A study of Mus musculus with 24 samples.

Results

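Group 2 is a set of haematopoietic stem cells (HSCs) that carry the number 2 in the deposited index-sort record, which gives every recorded cell a whole number from 1 to 10 without stating what the number stands for. It holds 117 of 1430 recorded cells (8.18%, exact 95% interval 6.81 to 9.72%). The cells had been gated as LSK (lineage-negative cells with Sca-1 and Kit), CD150+ and CD48- in the mouse strain -60/DR5-TA-RA-CFP, in which cyan fluorescent protein (CFP) reports retinoic acid signalling. All groups share that strain and that gate, and no group was treated. Single cells went into barcoded wells of 4 sort plates (numbered 2 to 5), their transcripts were counted with unique molecular identifiers (UMIs), and the cytometer's values were kept for each well. Neither the animals nor the 8 single-cell samples in the labels are tied to wells, so the plates serve as technical replicates. Whether the plates share animals or a pool of cells is not stated. Errors and p-values below measure only the spread between plates, and for fitted genes that spread is largely pooled over all genes. Exact intervals on shares of cells and on UMI counts cover counting error only.

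The comparison cells were the 1303 cells of groups 3 to 10. Group 1, with 10 cells, was left out. Groups 3, 4 and 5 (169, 330 and 253 cells) were also compared with group 2 one by one. No doublet caller was run on these single-cell sorts, and no well is shared between groups. Intervals on shares of cells cover counting error only.

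An HSC renews itself and supplies all blood lineages, and most adult HSCs rest outside the cell cycle. Resting HSCs are small, hold little RNA, and are known for transcription and signalling genes such as Mllt3 and Procr. When an HSC enters the cycle, it makes replication proteins and histones in S phase and then the mitotic machinery in G2/M, and ribosome output and RNA content rise. Retinoic acid signalling is known to act on HSC dormancy.

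Group 2 was unevenly spread over the plates. It made up 13 of 356 cells on plate 2 (3.65%), 18 of 345 on plate 3 (5.22%), 42 of 361 on plate 4 (11.6%) and 44 of 368 on plate 5 (12.0%). Plates 4 and 5 therefore hold most of the group. Summed over its cells, group 2 had 12697, 21645, 41147 and 45735 UMIs on plates 2 to 5, against 467528 to 520844 for groups 3 to 10. Plate 2 also stood apart in single genes, in all cells alike. Ifitm1 was counted at 78.8 CPM (UMIs scaled to a library total of 1000000) there in group 2 and at 229 CPM in groups 3 to 10, while the other plates held 3354 to 4019 CPM and 2225 to 2486 CPM. The count of genes that passed between groups is also given below without plate 2.

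The 3 genes given as marks of the group were each detected in only some of its cells. Each cell was thinned to 500 UMIs, so that cells of unequal depth could be compared, and no cell was shallower. Mllt3, a chromatin reader that acts in transcription elongation and HSC maintenance, had a UMI in 24 of 117 cells (20.5%, exact 95% interval 13.6 to 29.0%). The share was 11.8% in group 3, 14.5% in group 4, 9.49% in group 5, 2.97% in group 8 and 6.38% in group 9. Procr, the endothelial protein C receptor, had a UMI in 13 of 117 cells (11.1%, 6.05 to 18.3%), against 5.92% in group 3, 7.27% in group 4, 4.35% in group 5 and 0.532% in group 9. Sult1a1, a phenol sulfotransferase, had one in 5 of 117 cells (4.27%, 1.40 to 9.69%) in 11 of 253 cells of group 5 (4.35%), in 14 of 330 cells of group 4 (4.24%) and in 3.55% of group 3. Any of the 3 was seen in 36 cells (30.8%) and at least 2 of them in 5. With cells pooled over plates, group 2 had the highest share of the 9 groups for Mllt3 and Procr and group 5 for Sult1a1. With plates weighted equally, Procr was higher in group 7, at 13.0 ± 11.3% against 9.72 ± 3.87% in group 2. The intervals of group 2 and group 4 overlap for all 3 genes.

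In CPM, Mllt3 had its highest mean in group 2 as well. In group 2 it was at 394, 370, 292 and 612 CPM on plates 2 to 5, and in groups 3 to 10 at 96.3, 202, 238 and 182 CPM. Every plate of group 2 was above every plate of the other cells. By group the mean was 417 ± 137 CPM (SD over 4 plates) in group 2, 318 ± 132 in group 4, 250 ± 156 in group 3, 208 ± 187 in group 7 and 180 ± 32.1 in group 5, and neighbours in that order differed by less than their SDs. Procr was at 78.8, 185, 243 and 197 CPM in group 2 and between 85.1 and 98.4 CPM in the other cells. It was higher in 3 plates and lower on plate 2, where the group has 13 cells, and group 7 had a higher mean (231 ± 144 CPM) than group 2 (176 ± 69.4). Sult1a1 was at 0, 323, 72.9 and 241 CPM in group 2 and at 10.7, 53.8, 111 and 68.5 CPM in the other cells, so it was higher on plates 3 and 5 only and the groups overlap. Group 6 had a mean of 161 ± 216 CPM and group 2 of 159 ± 149. On the log2 scale the differences were 1.14 ± 0.29 (SE) for Mllt3, 1.02 ± 0.43 for Procr and 1.30 ± 0.50 for Sult1a1, and of these only Mllt3 passed the threshold of the fit across all genes.

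The label was checked against broader marker lists. All 10 HSC markers were detected in group 2, with a summed level of 2521 ± 338 CPM (2187 to 2886), against 2060 ± 174 in groups 3 to 10. Of the multipotent progenitor markers, Flt3 and Cd48 were at 0 UMIs in group 2, while Cd34 had 16 and Cd27 had 29. That list was at 342 ± 84.7 CPM in group 2 and at 448 ± 51.7 in groups 3 to 10. The neutrophil genes S100a8, S100a9, Ngp and Camp, the mast cell genes Cpa3, Mcpt8 and Prss34, the B and T cell genes Cd79a and Cd3e, and the lymphoid genes Dntt and Il7r were at 0 as well. Of these, Mcpt8, Prss34, Cd79a, Cd3e and Il7r were also at 0 in groups 3 to 10. Lyz2, a lysozyme gene counted together with Lyz1 and the remaining marker of the neutrophil and monocyte list, had 62 UMIs in group 2, at 435 ± 307 CPM against 313 ± 179 in the other cells (0.48 ± 0.25, not past the threshold). The lymphoid progenitor list as a whole had 9 UMIs, at 57.7 ± 44.4 CPM (0 to 97.2) against 27.2 ± 9.79 (12.8 to 34.6). The B, T and NK cell list had 16 UMIs, at 112 ± 118 CPM against 117 ± 18.8. Erythroid markers had 58 UMIs (428 ± 141 against 554 ± 75.3 CPM) and megakaryocyte markers 59 (459 ± 192 against 457 ± 69.0). Among 121224 UMIs, a gene at 0 still allows 3 UMIs. The 4 myeloid progenitor markers had 1289 ± 126 CPM (1181 to 1443) in group 2 and 926 ± 157 (808 to 1157) in the other cells. Their part in the results below was not tested.

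Group 2 lay at the low end of the cell-cycle scale. The share of UMIs from genes of S phase and G2/M was 0.815, 0.744, 0.852 and 0.759% on plates 2 to 5, and 1.25, 1.29, 1.44 and 1.41% in groups 3 to 10. Every plate of group 2 was below every plate of the other cells. The difference was -0.554 ± 0.0901 percentage points (SD, n = 4 plates; lower in 4 of 4; exact two-sided sign-flip permutation test, p = 0.13, the smallest that 4 plates allow). It was shared with the neighbouring groups. Groups 3, 4 and 5 had 0.811, 0.784 and 0.885%, and the difference of group 2 from their cells was -0.0331 ± 0.0635 points (lower in 3 of 4 plates, exact p = 0.375). Groups 8, 9 and 10, at 1.73, 2.88 and 3.31%, lay above.

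Its cells also gave few UMIs. The median cell of group 2 had 910, 1208, 947 and 985 UMIs on plates 2 to 5, and that of groups 3 to 10 had 1208, 1444, 1273 and 1312. The difference was -297 ± 42.4 UMIs (lower in 4 of 4 plates, exact sign-flip p = 0.13), and it was -172 ± 49.1 against groups 3, 4 and 5 (4 of 4, exact p = 0.13). Group 3 had medians of 897, 1146, 908 and 1009 UMIs, which overlap those of group 2. In 500 UMIs, a cell of group 2 showed a median of 374 ± 3.52 genes and other cells 389 ± 3.30. That difference, of -15.5 ± 0.707 genes, varied little between plates, and against groups 3, 4 and 5 it was -13.3 ± 2.18 genes, lower in 4 of 4 plates (exact sign-flip p = 0.13). Group 3 alone was close, at 377.5, 377.5, 375 and 376.5 genes on plates 2 to 5 against 370, 377, 371.5 and 376.5 in group 2. UMIs per well also follow the yield of each well's reaction, and the part of that in these values was not tested.

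**Figure D1:**
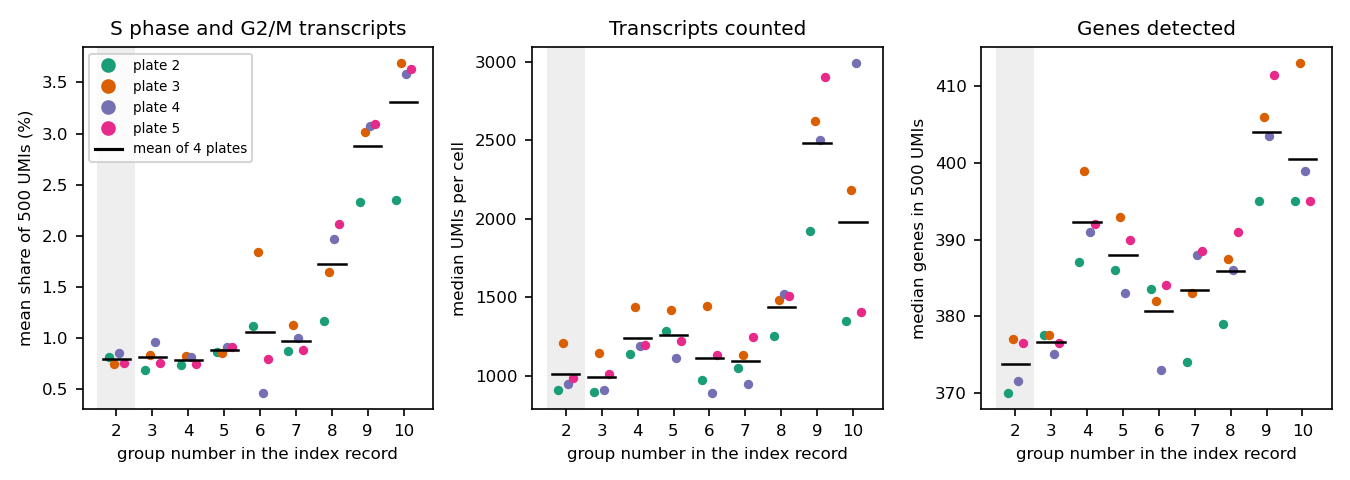
Per plate (coloured points) and as the mean of 4 plates (bars), for groups 2 to 10: mean share of each cell's 500 thinned UMIs from S phase and G2/M genes (%), median UMIs per cell, and median genes in 500 UMIs. Group 2 (shaded) sits with groups 3, 4 and 5 in the cell-cycle share, between 0.744 and 0.852%, and has the lowest mean number of genes in 500 UMIs, 374, close to group 3.

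The index channels offer a measure taken before any transcript was counted. Each channel was turned into a percentile rank among the cells of its plate, and the headers name dyes without the antibody, so no surface protein is named for them. Of the 14 channels, 5 differed from groups 3 to 10 in the same direction on all 4 plates. PE-Cy7 ranks averaged 37.5, 30.8, 33.3 and 39.4 in group 2 and 50.7 to 52.3 in the other cells, a difference of -16.2 ± 4.19 percentile points. APC-Alexa Fluor 750 ranks averaged 33.3, 34.4, 34.9 and 43.5, a difference of -14.7 ± 4.81. APC ranks were higher, at 60.1, 64.6, 51.5 and 59.8 (9.52 ± 5.78), as were Alexa Fluor 700 ranks, at 54.3, 60.2, 55.1 and 62.3 (8.59 ± 4.42). The exact sign-flip p was 0.13 for each of these (0.35 adjusted over the 14 channels), so none passed.

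CFP, the reporter, was the fifth. Its ranks averaged 41.1, 41.9, 39.5 and 44.5 in group 2 and 50.5 to 51.6 in groups 3 to 10, a difference of -9.14 ± 2.31 (lower in 4 of 4 plates, exact p = 0.13, adjusted 0.35). Against groups 3, 4 and 5 the CFP difference was 0.218 ± 2.80, with 3 plates just below 0 and plate 5 at 4.42. Groups 2 to 5 and group 7 all had low CFP. Their mean ranks ran from 39.2 in group 4 to 44.0 in group 3, while groups 8, 9 and 10 reached 62.6, 76.6 and 70.5. The cell-cycle share and the UMI count moved with CFP across groups, and their part in it was not tested.

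The channels that still set group 2 off from groups 3, 4 and 5 were others. PE-Cy7 was lower by -9.95 ± 3.13 points and APC-Alexa Fluor 750 by -7.63 ± 5.01, each in 4 of 4 plates, although plate 5 had a difference of only -0.157 in the latter. APC was higher by 10.5 ± 4.63 (4 of 4). Forward scatter width (4.90 ± 3.70), side scatter area (5.77 ± 6.86) and DAPI, the dye that enters dead cells (4.64 ± 4.84), were also higher in 4 of 4 plates, though the smallest of their plate differences were 0.128, 0.961 and 0.146. For all 6 the exact p was 0.13 and the adjusted p 0.292. In rank of APC, group 2 had the highest group mean, 59.0, followed by 54.0 in group 9 and 52.6 in group 3, and in PE-Cy7 the lowest, 35.3, followed by 41.4 in group 3. In APC-Alexa Fluor 750, group 3 was close to group 2, with a mean of 37.9 against 36.5, and was lower on plate 5 (39.3 against 43.5). Groups 4 and 5 had 41.4 and 49.4. In DAPI, group 5 had a higher mean (48.8) than group 2 (47.7).

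**Figure D2:**
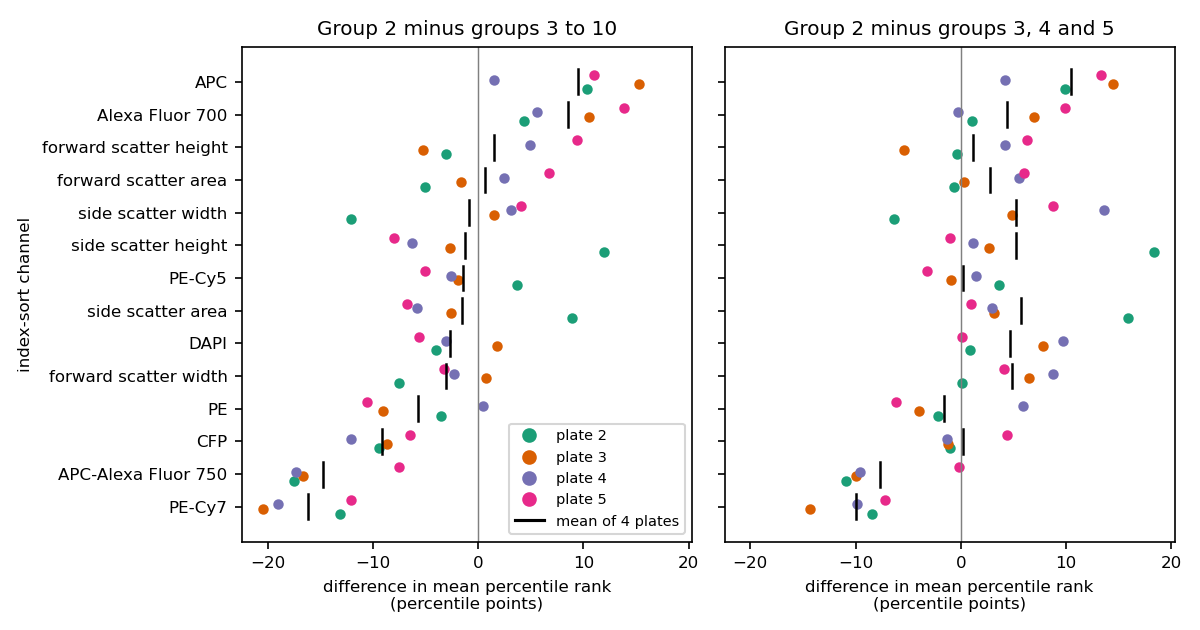
Difference in mean percentile rank (percentile points) between group 2 and groups 3 to 10 (left) or groups 3, 4 and 5 (right) for 14 index-sort channels, with 1 point per plate and a bar at the mean of 4 plates. PE-Cy7 and APC-Alexa Fluor 750 lie below 0 and APC above 0 on all plates in both panels, while CFP lies below 0 on all plates on the left (mean -9.14) and on 3 of 4 plates on the right (mean 0.218).

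Across genes, most of those that passed between group 2 and groups 3 to 10 were lower in group 2, and genes of replication and mitosis were among them. UMIs were summed per plate for group 2 and for the other cells and compared with edgeR's quasi-likelihood test, with plate as a term and a Benjamini-Hochberg adjusted p under 0.05 as the threshold. Of 4938 genes tested, 43 passed (0.871%), 8 higher (0.162%) and 35 lower (0.709%). In 7.19% of the genes tested the plates of group 2 and of the other cells did not overlap in CPM. How the group numbers were made is not stated, and if they were made from these UMIs then a contrast of genes between groups is not independent of the choice of cells. The gene values are therefore a description of group 2. Without the plate term 0 genes passed (407 at an unadjusted p under 0.05), and without TMM scaling 81 did, 33 higher and 48 lower. Leaving out plate 2, 3, 4 or 5 gave 69, 16, 25 and 10 genes. Without the low-count filter 54 of 13132 passed, 0 higher and 54 lower, with a median log2 fold change of -0.68 over all genes, and among cells with at least 1000 UMIs 9 passed, 0 higher and 9 lower. With each cell thinned to 500 UMIs 0 of 2031 passed (143 at an unadjusted p under 0.05).

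S phase genes were lower throughout. Of 41 tested members of the S phase list, all had a log2 fold change below 0, 8 passed and the median was -1.25, against a median of -0.12 over all genes tested and 0.709% of all genes called lower. A gene could enter the test on its UMIs in groups 3 to 10 alone. Those deeper libraries include groups 8, 9 and 10, which had the highest cell-cycle shares. The shared direction of the tested members is therefore read as a description only. Without plate 2, 3, 4 or 5 the count of 8 became 10, 4, 5 and 1. It was 1 with DESeq2, 2 among cells with at least 1000 UMIs, and 0 without the plate term or after thinning. The linker histone gene Hist1h1b was at 78.8, 139, 194 and 153 CPM in group 2 and at 458, 290, 534 and 871 CPM in the other cells, a log2 fold change of -1.95 ± 0.32. Dnmt1, which copies DNA methylation onto new strands, was at 158, 185, 170 and 131 CPM against 453, 344, 381 and 497 (-1.46 ± 0.33). In both genes every plate of group 2 was below every plate of the other cells. The linker histone gene Hist1h1a (-1.92 ± 0.47), also of the list, passed too. Outside the list, the core histone gene Hist1h2ae (-2.40 ± 0.47), the linker histone gene Hist1h1d (-1.78 ± 0.45) and Parp1, which marks DNA breaks (-1.73 ± 0.37), passed. Uhrf1, which guides Dnmt1, had 2 UMIs in group 2 and 285 in the other cells, a ratio of 0.114 in CPM with an exact counting interval of 0.0137 to 0.416.

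Mitotic genes followed. Of 35 tested members of the G2/M list, all were below 0, 8 passed and the median was -1.64, again beside 0.709% of all genes called lower and a median of -0.12. These genes too could enter the test on the other cells alone, so their shared direction is a description only. Without plate 2, 3, 4 or 5 the count became 8, 4, 5 and 4. It was 3 with DESeq2 or among cells with at least 1000 UMIs, and 0 without the plate term or after thinning. Tuba1b, an alpha tubulin, was at 630, 462, 1094 and 962 CPM in group 2 and at 2150, 1734, 2063 and 1865 CPM in the other cells (-1.24 ± 0.18), and Hmgb2, a chromatin protein of dividing cells, was at 78.8, 139, 97.2 and 153 CPM against 344, 428, 498 and 419 (-1.85 ± 0.35). Neither pair of groups overlaps. Ube2c, the ubiquitin-conjugating enzyme of the anaphase-promoting complex, had 1 UMI in group 2 against 306, a ratio of 0.0531 (exact counting interval 0.00134 to 0.298). The cyclin-dependent kinase subunit Cks1b (5 UMIs, -2.16 ± 0.57) and the kinetochore gene Spc24 (5 UMIs, -2.08 ± 0.57) passed too. Tuba1b, Hmgb2 and Hist1h1b stayed past the threshold without any 1 plate and in cells with at least 1000 UMIs.

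The other genes that fell include Csda, a cold-shock domain protein that binds RNA and DNA. It was at 78.8, 370, 292 and 241 CPM in group 2 and at 768, 630, 810 and 832 CPM in groups 3 to 10, with no overlap (-1.60 ± 0.26). Vim, the intermediate filament vimentin, was at 158, 185, 365 and 153 CPM against 616, 538, 464 and 397 (-1.10 ± 0.29). It did not pass without plate 2, 3 or 5. Fkbp2, a prolyl isomerase of the endoplasmic reticulum, had 5 UMIs in group 2 (-2.05 ± 0.58). Of the 20 tested growth and Ran transport genes 0 passed in edgeR (9 at an unadjusted p under 0.05), with 18 below 0 and a median of -0.58.

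The genes higher in group 2 were few. Gstm1, a glutathione transferase, was at 945, 785, 899 and 656 CPM in group 2 and at 567, 332, 430 and 350 CPM in the other cells, every plate above every other (0.93 ± 0.21). It is on the redox and detoxification list and on the myeloid progenitor list. Of the 5 tested members of the latter, only Gstm1 passed (3 above 0, median 0.45), beside 0.162% of all genes called higher. Use1, a SNARE of retrograde traffic to the endoplasmic reticulum, was at 1339, 739, 753 and 743 CPM against 599, 463, 453 and 440 (0.74 ± 0.21). Gabarapl1, a ubiquitin-like protein of autophagosomes, was at 158, 878, 292 and 569 CPM against 74.9, 371, 249 and 243, higher on each plate although the groups overlap (0.93 ± 0.26). Ifitm1, an interferon-induced membrane protein, was at 78.8, 4019, 3354 and 3979 CPM against 229, 2335, 2486 and 2225, higher on 3 plates and lower on plate 2 (0.62 ± 0.15). Mllt3 completes the named set. Mllt3, Gstm1, Use1, Gabarapl1 and Ifitm1 each missed the threshold without plate 3, without plate 5 and among cells with at least 1000 UMIs.

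**Figure D3:**
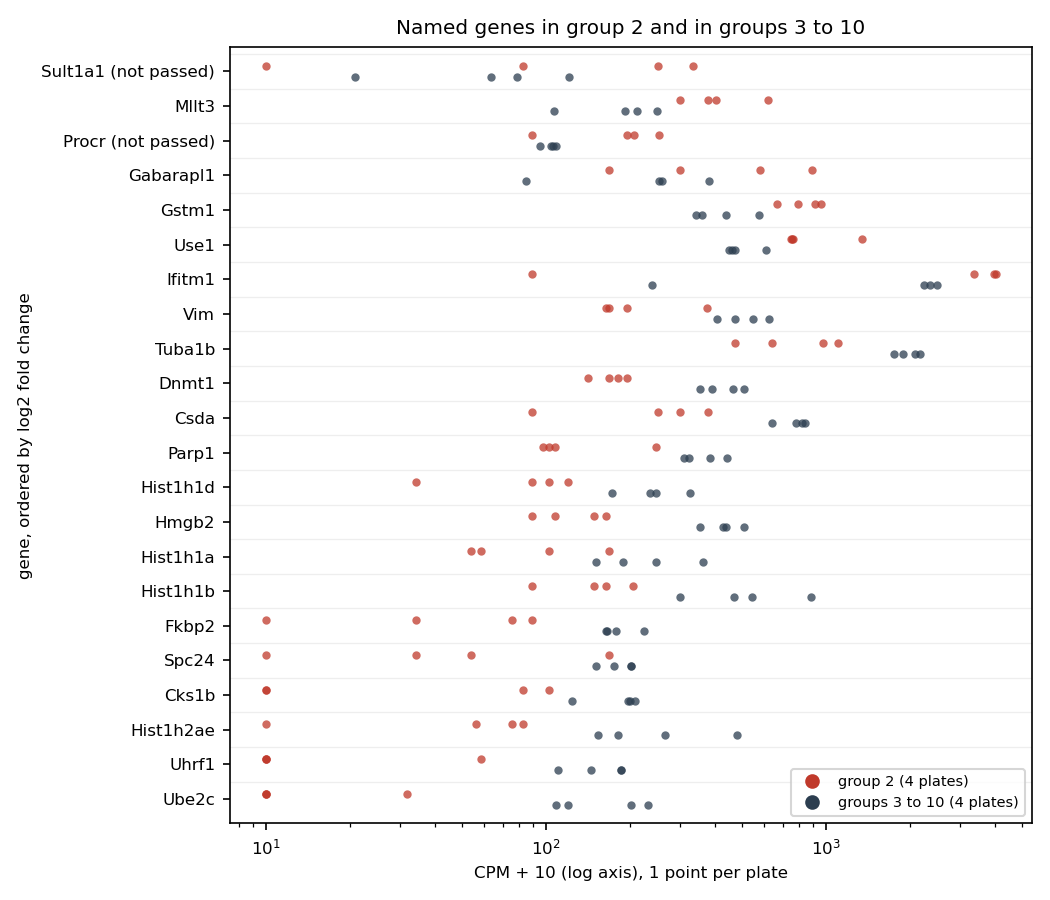
Level of each named gene on each plate (CPM + 10, log axis) in group 2 (red) and in groups 3 to 10 (dark), ordered by log2 fold change, with genes that did not pass marked. For Mllt3, Gstm1 and Use1 all red points lie to the right of all dark ones, and for Hist1h1b, Tuba1b, Dnmt1, Csda and Ube2c all lie to the left.

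HSC genes lay mostly above 0. Of 30 tested members of the HSC identity list, 2 passed (Mllt3 and Ifitm1), both higher, 23 were above 0 and the median was 0.32, beside 0.162% of all genes called higher. Leaving out plate 2 gave 3 and leaving out plate 4 gave 1. Without plate 3 or 5, with DESeq2, without the low-count filter, without the plate term, after thinning or among cells with at least 1000 UMIs 0 passed. The list took 1.37 ± 0.365% of the UMIs of group 2 and 1.38 ± 0.304% of those of group 3. The list includes the 3 marks of the group, which are not independent of it. Of the 9 tested genes of quiescence and growth arrest, 0 passed in edgeR (0 at an unadjusted p under 0.05) and the median was 0.33. Txnip, an inhibitor of thioredoxin, was at 1135 ± 511 CPM against 918 ± 188 (0.33 ± 0.18), and Cdk4, a kinase of G1 progression, at 579 ± 158 against 869 ± 65.1 (-0.54 ± 0.21). Neither passed.

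Among the neighbouring groups, the fewest genes passed against group 3. The 3 pairwise comparisons came from 1 fit over groups 2 to 10 and share the cells of group 2, so their values are given side by side. In that fit 1850 genes were tested. Against group 3, 9 passed (0.486%), 3 higher and 6 lower. Against group 4, 33 passed (1.78%), 26 higher and 7 lower, the latter 0.378% of genes (18 and 11 without TMM scaling). Against group 5, 30 passed (1.62%), 19 higher and 11 lower, the latter 0.595% of genes. The lower calls against group 3 were 0.324% of genes. The plates of the 2 groups did not overlap in CPM in 3.68, 4.70 and 4.92% of the genes tested against groups 3, 4 and 5. Without the plate term 0, 0 and 3 passed (99, 112 and 117 at an unadjusted p under 0.05), and leaving out plate 2, 3, 4 or 5 gave 5, 3, 4 and 0 genes against group 3, 31, 20, 10 and 7 against group 4 and 25, 13, 18 and 5 against group 5. Among tested cell-cycle genes, 0 of 24 for S phase and 0 of 29 for G2/M passed against each of the 3 groups by edgeR. At an unadjusted p under 0.05 there were 1, 1 and 6 S phase genes and 1, 0 and 0 G2/M genes against groups 3, 4 and 5, and DESeq2 called 1 G2/M gene against group 3.

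Ribosomal protein transcripts took a larger share of group 2 than of most groups. They made up 20.0, 19.7, 20.6 and 19.6% of its UMIs on plates 2 to 5. Group 3 had 17.9, 19.3, 19.7 and 18.8%, lower on each plate. Group 4 had 15.5 to 16.4%, group 5 16.3 to 17.5% and groups 9 and 10 between 12.7 and 14.5%, so group 2 overlaps none of these 4. Group 6, with 33 cells, reached 19.8% on plate 5. Median UMIs per cell averaged 1012 in group 2, 990 in group 3, 1240 in group 4 and 1259 in group 5. They averaged 2486.5 in group 9 and 1981.5 in group 10, so most groups with fewer UMIs had a larger ribosomal share. Group 8, with 1440 UMIs and a share of 17.6%, departed from that order. The pairwise comparisons below were not run at equal depth, and the part of depth in the ribosomal values was not tested. Of 48 tested ribosomal protein genes, 24 passed against group 4, all higher, with a median log2 fold change of 0.34 beside -0.00 over all genes and 1.41% of all genes called higher. Without plate 2, 3, 4 or 5 the 24 became 23, 16, 7 and 5. Against group 5, 11 passed, all higher (median 0.23, beside 1.03% of all genes), and against group 3 only Rps3 and Rplp2 did (median 0.05, beside 0.162%). Without plate 2, 3, 4 or 5 the 11 became 11, 7, 8 and 2, and the 2 against group 3 became 2, 0, 0 and 0. Without the low-count filter or the plate term 0 passed in each of the 3 pairs. In the comparison with groups 3 to 10, 0 of 66 passed with TMM scaling (median 0.22, 54 above 0, 15 at an unadjusted p under 0.05), 4 with DESeq2 and 16 without TMM scaling. That count became 9 without plate 2 and stayed at 0 without plate 3, 4 or 5.

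Single ribosomal genes showed the size of this. Rps3, of the small subunit, was at 13783, 12566, 11228 and 11304 CPM in group 2. It was at 8669 to 10397 CPM in group 3 (0.35 ± 0.08), at 7766 to 9600 CPM in group 4 (0.54 ± 0.08) and at 8375 to 9981 CPM in group 5 (0.44 ± 0.08), with no overlap in any of them. Rplp2, of the ribosomal stalk, was at 3702, 3557, 4204 and 4329 CPM against 2697 to 3221 in group 3 (0.44 ± 0.11). Rpl32 was at 394 CPM on plate 2 and at 6745, 8457 and 7762 CPM on plates 3 to 5 in group 2, and at 202, 4896, 5415 and 5215 CPM in group 4 (0.62 ± 0.09). It was higher on each plate, and its level on plate 2 was low in both groups. Gnb2l1, a ribosome-bound scaffold protein, was higher than in group 4 (0.35 ± 0.08) and group 5 (0.31 ± 0.08). Many ribosomal genes have near-identical pseudogene copies, and how the authors' counting shared such reads is not stated.

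**Figure D4:**
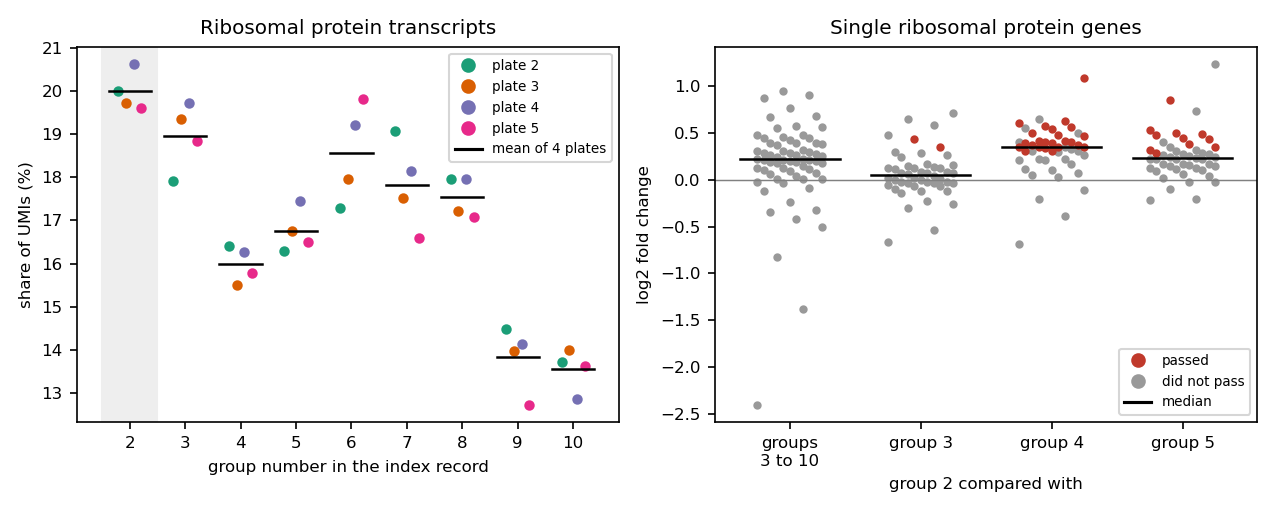
Left, share of UMIs from cytosolic ribosomal protein genes (%) per group and plate (points) with the mean of 4 plates (bar). Right, log2 fold change of each tested ribosomal protein gene in group 2 against the named groups, red where it passed, with a bar at the median. Group 2 (shaded) lies between 19.6 and 20.6% on all plates, and its median fold change is 0.34 against group 4 and 0.05 against group 3.

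Against group 3 the other genes that passed were few. Actb, beta-actin, was at 9766, 7346, 9041 and 9293 CPM in group 2 and at 12732, 8892, 11019 and 12849 CPM in group 3, lower on each plate (-0.37 ± 0.08). Ptpn18, a tyrosine phosphatase, was at 866, 970, 1069 and 962 CPM against 2061, 1795, 1499 and 1464 (-0.71 ± 0.17), and Hsp90ab1, a chaperone, at 3170 to 3938 CPM against 4199 to 5862 (-0.49 ± 0.11). Neither gene's groups overlap. Ly6e, a membrane-anchored protein induced by interferon, was lower (-0.64 ± 0.14), as was Anapc11, the catalytic RING subunit of the anaphase-promoting complex (138 ± 95.4 against 434 ± 58.8 CPM, -1.48 ± 0.37). Coro7, a coronin of the Golgi, was higher, at 236, 185, 219 and 350 CPM against 45.8, 16.5, 122 and 77.1 (1.92 ± 0.51). Mllt3 did not pass here, with plates 3 and 4 of group 3 at 362 and 405 CPM. Ifitm1 was lower on each plate than in group 3 and did not pass (-0.31 ± 0.12). Of 15 tested interferon response genes, 11 were below 0, with a median of -0.24 against -0.02 over all genes tested. Only Ly6e passed, beside 0.324% of all genes called lower. In edgeR 5 of the 15 had an unadjusted p under 0.05, beside 143 of all 1850 genes.

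Against group 4, 7 genes were lower, among them the RNA Malat1. Malat1, a long nuclear RNA, was at 158, 323, 802 and 875 CPM in group 2 and at 634, 1370, 1143 and 2003 CPM in group 4 (-1.03 ± 0.19). It stayed past the threshold without any 1 plate. Vim (-1.16 ± 0.29), Capzb, which caps actin filaments (-0.96 ± 0.27), and Ddx21, a nucleolar RNA helicase (-1.35 ± 0.36), were lower on each plate. Kit, the stem cell factor receptor used in the gate, was at 158, 323, 146 and 284 CPM against 510, 332, 338 and 679, without overlap, and did not pass (-0.93 ± 0.31).

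Against group 5, some HSC identity genes passed beside the ribosomal ones. Of 19 tested, 3 passed, all higher (beside 1.03% of all genes), while 0 of 19 passed against group 3 (3 at an unadjusted p under 0.05, 0 in DESeq2) and 1, Ifitm1, against group 4. The 3 became 1, 2 and 0 without plate 3, 4 or 5, 1 with DESeq2, and 0 without the low-count filter or the plate term. They are Mllt3 (1.21 ± 0.33), Ifitm1 (0.48 ± 0.12) and Pdzk1ip1, a small membrane protein (0.70 ± 0.20). Pdzk1ip1 was at 1181, 924, 802 and 1137 CPM against 749, 538, 497 and 702, with no overlap. Gstm1 (1.06 ± 0.23) and Prtn3, the myeloid protease proteinase 3 (0.67 ± 0.18), were higher, Prtn3 at 1024 to 1312 CPM against 710 to 930. Among the lower genes, Actb was at 10791 to 14631 CPM in group 5, above every plate of group 2 (-0.62 ± 0.08), and Tkt, a transketolase, at 610 to 907 CPM against 323 to 473 (-0.81 ± 0.24). Parp1 (-1.67 ± 0.39), the splicing regulator Ptbp1 (-1.70 ± 0.44) and Ddx21 (-1.30 ± 0.37) were lower on each plate.

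Csda was lower in all 4 comparisons. Its mean was 245 ± 123 CPM in group 2, 549 ± 63.1 in group 3, 577 ± 92.1 in group 4 and 681 ± 79.9 in group 5, with log2 fold changes of -1.12 ± 0.30, -1.12 ± 0.27 and -1.34 ± 0.27. Group 7 had 339 ± 193 CPM and groups 8 and 9 had 974 ± 116 and 1038 ± 236. The comparison with group 3 did not pass when any 1 plate was left out, and that with group 4 did not without plate 4 or 5. The 4 comparisons rest on the same 32 UMIs of group 2.

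Within group 2, no gene passed between brighter and dimmer cells. The cells were split at the median CFP of each plate into sets of 58 brighter and 58 dimmer cells, a split that does not depend on the group number. The sets lay close together in CFP, at 2.83 ± 0.00314 and 2.79 ± 0.00579 (log10 units). Of 172 genes with enough UMIs, 0 passed in edgeR (0% of those tested, 6 at an unadjusted p under 0.05) and 0 in DESeq2, and in 2.33% the plates of the 2 sets did not overlap in CPM. The brighter set had 1054 ± 152 UMIs per median cell and the dimmer 964 ± 35.9, higher on 2 of 4 plates (exact sign-flip p = 0.5), and the cell-cycle shares were 0.846 ± 0.0607 and 0.757 ± 0.139% (higher on 3 of 4, exact p = 0.5). Rpl13 (0.35 ± 0.16) and Ifitm3 (0.41 ± 0.25) are examples of genes that did not pass. With 5604 to 24962 UMIs per set and plate, a lack of calls does not show that the sets are alike.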

How the data were processed

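The authors deposited UMI counts, not normalized, for 27297 gene entries in 1536 wells. How reads became UMIs is not stated in the labels or headers. The submitters' processing notes list, without roles, bcl2fastq 2.15.0.4, cutadapt, STAR, featureCounts, Bismark 0.19.0, DESeq2 and the builds mm9 and mm10. In the deposited index record CFP is on a log10 scale, per the values, and forward scatter area is a linear intensity. The other deposited channels count as a score here, since no scale is stated, and only their order among the cells of a plate was used. PE, PE-Cy5, PE-Cy7 and DAPI hold spreadsheet errors in 47, 14, 77 and 70 wells, which were left out of that channel. Of these wells, 5, 2, 10 and 6 belong to group 2. Why these values are missing is not stated, and the effect of leaving them out on the ranks was not tested. All 1430 recorded wells (511 UMIs or more) were joined by well name. The bulk RNA-seq and bisulphite samples were not analysed here.

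UMIs were summed per plate and group and tested with edgeR 4.0.16 in R 4.3.3 (quasi-likelihood test with plate as a term, TMM scaling, low counts filtered by filterByExpr). In the comparison with groups 3 to 10, edgeR had 3 residual and infinite prior degrees of freedom, so the SEs rest on the spread over all genes. In the fit over groups 2 to 10 the residual and prior degrees of freedom were 24 and 1159.5, so its SEs rest almost wholly on that pooled spread too. In the CFP split they were 3 and 14.3. Plates pair the samples by design. Deviations from the group means correlated at 0.713, 0.487, 0.450 and 0.446 within a plate over the 500 highest genes. Between different plates they correlated at 0.245 to 0.397 among plates 3, 4 and 5, and at -0.654 to -0.397 where plate 2 was 1 of the pair. Against group 3, plates 4 and 5 had 0.260 and 0.257 within a plate and 0.281 and 0.275 between them, so the pairing there was no closer within a plate. CPM is UMIs scaled to a library total of 1000000. Channels, shares and UMIs per cell were compared by an exact sign-flip test over 4 plates (smallest p 0.13) in Python 3.11.15. Scripts were tested on simulated data.

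The cells, gene lists and tests were chosen with earlier results of these data known. Named genes are the 3 given marks, the genes with the highest and lowest fold among those that passed in the same direction on all plates (12 each way, 6 each way for pairs of groups and the CFP split), and from each list the 2 genes with the smallest p each way. Entries without a usual symbol were passed over, and some genes are not reported here. Alternatives were DESeq2 1.42.0, no low-count filter, no plate term, no TMM, thinning, a minimum of 1000 UMIs, group 1 added and each plate left out. Scaling without TMM and the comparison with groups 3, 4 and 5 of channels, shares and UMIs were chosen after seeing the data.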

Additional observations from a re-analysis of the deposited data

Results flagged for a closer look

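Of 79 sets of 4 plate values tested for a plate far from the other 3, 14 held one, and chance gives about 1 in 20. In the channels, side scatter area against groups 3, 4 and 5 had one plate difference of 15.9 points and side scatter width against groups 3 to 10 one of -12.1, both on plate 2. On plate 5, CFP against groups 3, 4 and 5 was at 4.42, and APC-Alexa Fluor 750 at -7.54 against groups 3 to 10 and at -0.157 against groups 3, 4 and 5.

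Among genes, plate 2 stood apart for Use1 (1339 CPM in group 2 and 599 in groups 3 to 10), Ifitm1 (78.8 and 229 CPM), Parp1 in group 2 (236 CPM) and Cks1b in groups 3 to 10 (113 CPM). Vim in group 2 was apart on plate 4 (365 CPM). For Ube2c (21.9 CPM) and Uhrf1 (48.6 CPM) in group 2, the plate apart was the only one with a UMI.

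The 106 wells without an index record held 25068 UMIs, at most 502 in a well. In the 10 cells of group 1, 7.50% of UMIs came from the haemoglobin gene Hba-a2, which had 9 UMIs in all of group 2.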

How the results depend on the processing

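Counts of genes that passed depended on the settings. Against groups 3 to 10, where 43 passed, DESeq2 gave 15, library totals without TMM 81, the table without the low-count filter 54 (0 higher), cells with at least 1000 UMIs 9 (0 higher) and thinning to 500 UMIs 0, and leaving out 1 plate gave 10 to 69. Without the replicate block 0, 0, 0 and 3 genes passed against groups 3 to 10, 3, 4 and 5, and without the low-count filter 0, 1 and 3 passed against groups 3, 4 and 5. Leaving out 1 plate gave 0 to 5, 7 to 31 and 5 to 25 genes in these 3 comparisons. No named gene that passed changed its direction under any alternative run. The count for the CFP split within group 2 was 0 throughout.

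For the channels, using groups 3, 4 and 5 in place of groups 3 to 10 turned the sign of forward scatter width (4.90), side scatter area, width and height (5.77, 5.24 and 5.30), CFP (0.218), PE-Cy5 (0.227) and DAPI (4.64). Leaving out 1 plate turned forward scatter area (-1.38 to 2.53), forward scatter height (-1.13 to 3.76), side scatter area (-5.02 to 0.195), side scatter width (-2.50 to 2.89) and side scatter height (-5.66 to 1.01). The cause was not tested. PE-Cy7, APC, Alexa Fluor 700 and APC-Alexa Fluor 750, the cell-cycle share, UMIs per cell and genes per cell kept their direction under every alternative run. Group 2 was the shallower library on every plate, which limits low genes.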

Other observations

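Class II antigen presentation genes were compared with the neighbouring groups as well. H2-Ab1, a class II chain, was at 248 ± 93.0 CPM against 100 ± 23.3 in groups 3 to 10 (1.33 ± 0.39, not past the threshold) and passed against group 5 (1.56 ± 0.46). Cd74, the class II invariant chain, was at 414 ± 102 against 234 ± 38.6 CPM (0.80 ± 0.28) and did not pass, and it was at 489 ± 111 CPM in group 3 and 384 ± 134 in group 4. H2-Ab1 was at 177 ± 106 CPM in group 3 and 115 ± 34.9 in group 4, and H2-Aa, another class II chain, at 329 ± 149 in group 2 and 323 ± 34.9 in group 4. The B and T cell genes Cd79a and Cd3e were at 0 in group 2 and in groups 3 to 10 alike, so they do not tell these cells apart. The longer list of mature B, T and NK cell genes includes H2-Ab1. Of its 5 tested members, 0 passed in edgeR against groups 3 to 10 (3 at an unadjusted p under 0.05). All 5 were above 0, with a median of 0.62.

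Of the 5 tested genes of the retinoic acid list, 0 passed in edgeR against groups 3 to 10 (1 at an unadjusted p under 0.05), with a median of 0.37. Of the 69 tested genes of oxidative phosphorylation, 0 passed (11 at an unadjusted p under 0.05, median -0.10, 48 below 0). Calr, a calcium-binding chaperone of the endoplasmic reticulum, was at 829 ± 152 against 1270 ± 167 CPM (-0.60 ± 0.19), lower on each plate, and did not pass.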
